A study of Homo sapiens with 30 samples.

Results

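The first 4 days of cardiomyocyte differentiation were followed in QKI-knockout (KO) cells of the Hues6 human embryonic stem cell line. The members are the 3 whole-cell KO libraries of day 4 (D4) and the 3 of day 0 (D0), which are 6 of the 30 samples of the series, read across all genes. The D4 KO cells had received 1.25 uM CHIR, which inhibits GSK3 and so activates the WNT pathway, together with 1.5 ng/mL BMP4, and then 100 nM C59, which blocks the secretion of WNT ligands. The D0 KO cells had received none of these agents and were kept overnight in a stem cell growth medium. The same course in wild-type (WT) cells is given beside the KO course only to show where the KO course differs, with 3 libraries at D4, after 1.5 uM CHIR and the same BMP4 and C59, and 3 at D0 without the agents. CHIR dose changed with genotype, so a difference between the KO and WT courses cannot be told apart from a difference in dose. Likewise D4 differs from D0 in time, medium and all 3 agents at once. The labels do not give the number of KO clones, nor whether the libraries of a group came from separate cultures. The spread behind each p-value is that between libraries of a group, estimated over all 18 whole-cell libraries, also those of a later day. It may be technical. The growth protocol describes UV crosslinking of the cells, and whether the cells used for these libraries were crosslinked is not stated.

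In this kind of protocol a pulse of WNT and BMP signalling takes pluripotent cells through a primitive streak stage into mesoderm, and later inhibition of WNT turns mesoderm towards heart. Pluripotency factors such as NANOG and POU5F1 are lost on the way, and GATA, T-box and HAND transcription factors of the heart appear before the proteins of the contractile sarcomere. QKI is an RNA-binding protein of the STAR family that controls splicing and RNA stability in muscle and in glia.

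Promoters of 4 genes that the results below turn on are printed here, because each holds letters of a motif known from the pathway its gene belongs to. They are RefSeq sequences of build GRCh38.p14, from 250 bases before the annotated start to 50 bases after it, read 5′ to 3′ on the strand of the gene. Capitals mark the motif, and positions are counted from the start site.
NANOG, chr12:7789152-7789451, plus strand, octamer and SOX composite in capitals: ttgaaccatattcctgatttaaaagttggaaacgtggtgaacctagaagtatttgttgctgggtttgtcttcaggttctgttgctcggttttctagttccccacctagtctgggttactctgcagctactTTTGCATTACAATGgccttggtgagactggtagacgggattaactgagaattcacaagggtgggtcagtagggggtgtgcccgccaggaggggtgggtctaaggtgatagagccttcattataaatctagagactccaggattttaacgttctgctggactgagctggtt
SP5, chr2:170715087-170715386, plus strand, TCF/LEF letters in capitals: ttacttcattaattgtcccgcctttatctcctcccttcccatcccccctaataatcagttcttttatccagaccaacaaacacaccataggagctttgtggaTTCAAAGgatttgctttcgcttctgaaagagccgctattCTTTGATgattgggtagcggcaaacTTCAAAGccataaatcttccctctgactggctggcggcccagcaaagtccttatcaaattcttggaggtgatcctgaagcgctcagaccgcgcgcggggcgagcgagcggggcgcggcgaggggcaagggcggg
CYP26A1, chr10:93073643-93073942, plus strand, retinoic acid direct repeat in capitals: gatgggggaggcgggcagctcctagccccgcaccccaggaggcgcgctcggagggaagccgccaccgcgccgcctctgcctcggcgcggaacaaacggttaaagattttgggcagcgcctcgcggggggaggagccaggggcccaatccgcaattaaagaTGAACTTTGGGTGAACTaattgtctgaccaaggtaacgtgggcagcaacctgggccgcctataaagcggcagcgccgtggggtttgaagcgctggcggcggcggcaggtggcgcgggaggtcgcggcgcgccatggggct
BNIP3, chr10:131981874-131982173, minus strand, hypoxia element core in capitals: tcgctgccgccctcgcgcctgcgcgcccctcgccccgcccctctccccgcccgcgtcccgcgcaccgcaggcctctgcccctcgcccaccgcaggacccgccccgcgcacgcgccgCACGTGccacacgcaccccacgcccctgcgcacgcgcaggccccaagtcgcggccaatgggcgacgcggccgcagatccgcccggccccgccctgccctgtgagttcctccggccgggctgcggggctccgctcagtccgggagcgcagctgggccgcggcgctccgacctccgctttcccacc

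The composite searched was TTTGCAT, 1 further base and ACAATG, and NANOG holds it from -120 to -107. It is in 0.00854% of all 35116 promoters of the table, both strands read. The TCF/LEF letters CTTTGAT or CTTTGAA stand at 3 places of the SP5 promoter, beginning at -148, -109 and -84, and are in 6.86% of all promoters. The repeat AGTTCA, 5 bases and AGTTCA lies on the minus strand from -90 to -74 in 1 of the 2 promoters listed for CYP26A1, and is in 0.0114% of all promoters. The core ACGTG is in 21.4% of all promoters and in 24.2% of those of genes tested. BNIP3 holds it within CACGTG, from -134 to -129. These letters read the same on both strands, so the matches on the 2 strands are 1 place. The core also occurs, in lower case, in the printed promoters of NANOG (-219 to -215) and CYP26A1 (-55 to -51). These matches are a description of letters and do not show that a factor binds. The composite, the repeat and the hypoxia core were chosen after gene values had been seen. The composite and the repeat were each searched as 1 exact string, so their low shares reflect how narrow the strings are. The printed genes were picked because they hold the letters, so a match in them is no support for the motif.

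Across the promoters of the 14031 tested genes that matched the table (64.5% of those tested), the GATA letters AGATAA were in 8.28% of promoters of genes called at least 2-fold higher at D4 and in 6.82% of promoters of all genes tested. Genes called at least 2-fold lower held them in 6.90%. The octamer ATTTGCA was in 3.97% of promoters of the lower genes, in 3% of those of the higher genes and in 3.06% of all. The T-box letters GGTGTGA were in 3.10% of promoters of the higher genes, in 3.17% of those of the lower genes and in 3.13% of all. The TCF/LEF letters were in 4.55% of promoters of the higher genes, in 5.02% of those of the lower genes and in 4.67% of all. No test was made of these shares.

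QKI itself (ENSG00000112531.12) had 88.5, 68.2 and 78.0 CPM (counts scaled to a common library total) in the D4 KO libraries and 41.3, 41.3 and 35.5 CPM in the D0 KO libraries. The groups did not overlap, and the level was higher at D4 by 0.99 on the log2 scale (SE 0.09, edgeR adjusted p = 2.2e-09). In WT it averaged 146 CPM at D4 and 293 CPM at D0, a log2 change of -1.0 (SE 0.09). Every KO library thus lay below every WT library of its own day, but the KO and WT courses ran in opposite directions, with a difference of 1.99 (SE 0.13, edgeR adjusted p = 8.7e-10). Reads of QKI were present in all 6 KO libraries, and the counts do not show which part of the gene they come from.

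The 6 KO libraries held 42065821 to 53030999 counts at D4 and 51269439 to 61484118 at D0, and libraries of 1 KO group correlated more closely (Pearson r of log2 CPM 0.994) than libraries of different days (0.875 to 0.881). Reads of mitochondrially encoded genes took 10.7% to 12.4% of counts at D4 and 2.26% to 3.23% at D0. Of 21761 genes tested, 17984 were called at an adjusted p under 0.05 (82.6%), of which 9599 were higher at D4 (44.1%) and 8385 lower (38.5%). The CPM ranges of the days did not overlap in 84.8% of genes. At 2-fold or more 11201 were called (51.5%), of which 6614 genes were higher (30.4%) and 4587 lower (21.1%). Counts of list members below that name no size of change are read against 44.1% higher and 38.5% lower. Those at 2-fold or more are read against 30.4% higher and 21.1% lower. The median log2 fold change over all genes was 0.12, and it was 0.33 when libraries were scaled by total counts alone, so small changes depend on the scaling. In bulk RNA, fewer cells of a type and less RNA per cell cannot be told apart.

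The genes with the largest rises were close to silent at D0. CFC1, a NODAL co-receptor that helps set the left and right sides of the embryo and which has a near-identical copy, had 30.3, 36.6 and 35.5 CPM at D4 KO and no count in any D0 KO library, which makes it at least 1800-fold higher if the D0 group is set to 3 counts in all. HABP2, a secreted protease that binds hyaluronan, and GYPE, a glycophorin with near-identical relatives, were each at least 1140-fold higher on the same floor. EGFLAM-AS4, a long noncoding RNA antisense to EGFLAM, was at least 1280-fold higher, although its reads may be shared with the overlapping gene since the sources used here do not give the strand setting of the counting.

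HNF4A, a nuclear receptor of liver and gut endoderm, had 4376 counts over the 3 D4 KO libraries and 2 counts at D0 KO, a ratio of 2270 with a 95% counting interval of 627 to 18700. GPR55, a lipid receptor, had 5510 counts at D4 KO and 1 count at D0 KO, a ratio of 5710 (1020 to 226000). The intervals and floors cover counting error only, and that of GPR55 rests on a single read.

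GATA6-AS1, whose antisense reads are uncertain as for EGFLAM-AS4, showed a ratio of 2100 (581 to 17400) and ITGA8, an integrin subunit known from the kidney, one of 1920 (655 to 9290). The D0 reads of both came from 1 library each: without that library D0 KO holds no count, and the fitted log2 fold changes of 13.61 in GATA6-AS1 and 14.07 in ITGA8, instead of 10.80 and 10.76, are no bounds, and without D0 KO replicate 3 that of ITGA8 became 10.17. SAMD11, a chromatin-associated SAM domain protein, rose by 11.77 (SE 0.15) and the long noncoding RNA LINC00261, transcribed beside FOXA2, by 10.85 (SE 0.22), with edgeR adjusted p of 1.2e-22 and 5.8e-20. In all, 43 called genes had a mean under 0.1 CPM at D0 and of at least 10 CPM at D4 in KO, and 38 did so in WT, where 81% of all genes were called.

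The largest falls among genes of at least 10 CPM were led by LINC00678, a noncoding RNA of pluripotent cells, at 2.32, 2.24 and 2.12 CPM in D4 KO and 375, 396 and 390 CPM in D0 KO, a fall to which edgeR gave a log2 value of -7.44 (SE 0.12, adjusted p = 1.9e-21). ESRG, another RNA of pluripotent cells, averaged 33.7 CPM at D4 and 1664 CPM at D0. VSNL1, a neuronal calcium sensor, fell by 6.82 on the log2 scale and GRIA4, a glutamate receptor subunit, by 6.28. NR5A2, a nuclear receptor that can drive POU5F1, fell by 5.54, and the amino acid transporter SLC38A4 fell by 5.92. The metallothionein MT1G and the histone genes HIST1H2BJ and HIST1H2AC fell by 7.14, 6.82 and 6.34, and all 3 have near-identical relatives whose reads may be split. In KO 39 called genes had at least 10 CPM at D0 and under 1 CPM at D4, and in WT 30 did.

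Of 15 pluripotency genes tested, 13 were lower at D4 KO, 12 of them by 2-fold or more, and 2 were higher, with a median log2 fold change of -2.51. NANOG, whose promoter is printed above, had 2.08, 1.39 and 1.22 CPM at D4 KO and 88.6, 88.4 and 92.4 CPM at D0 KO. The 2 days were far apart in every library, and the fall was -5.82 (SE 0.13, edgeR adjusted p = 2.3e-19). POU5F1, the octamer-binding factor at the centre of the network, averaged 204 ± 8.45 CPM at D4 and 2234 ± 245 CPM at D0 (SD, n = 3 each). Its fall of 3.46 left it above 190 CPM in each D4 KO library.

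SOX2, the partner of POU5F1, fell by 3.15 (SE 0.09), the RNA-binding L1TD1 by 4.01 (SE 0.17) and the methyltransferase DNMT3B by 3.01 (SE 0.09). LIN28A, which blocks the maturation of let-7, averaged 1186 CPM at D4 and 2361 CPM at D0, a fall of 0.99. The exceptions were ZFP42, also called REX1, which rose by 0.85 (SE 0.13), and SALL4, which also has roles outside stem cells and rose by 0.50 (SE 0.07).

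Several pluripotency genes fell further in KO than in WT. PRDM14, a repressor of differentiation, was 7.0, 7.6 and 6.67 CPM at D4 KO and 74.7, 68.9 and 81.7 CPM at D0 KO, and it averaged 18.7 CPM at D4 WT and 45.5 CPM at D0 WT. The KO course was lower by 2.12 (SE 0.14, edgeR adjusted p = 8.4e-10). For DNMT3B the difference was -1.74 (SE 0.12), for L1TD1 -1.33 (SE 0.22), for SOX2 -1.29 (SE 0.11) and for POU5F1 -0.69 (SE 0.17). Of the 15 genes, 8 had a lower and 1 a higher course in KO than in WT. The higher one was ZFP42, which fell in WT by 1.26 and rose in KO. Over all genes, 19.1% were called lower and 20% higher in the KO course than in the WT course. Counts of higher and lower courses in the lists below are read against these shares.

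**Figure D1:**
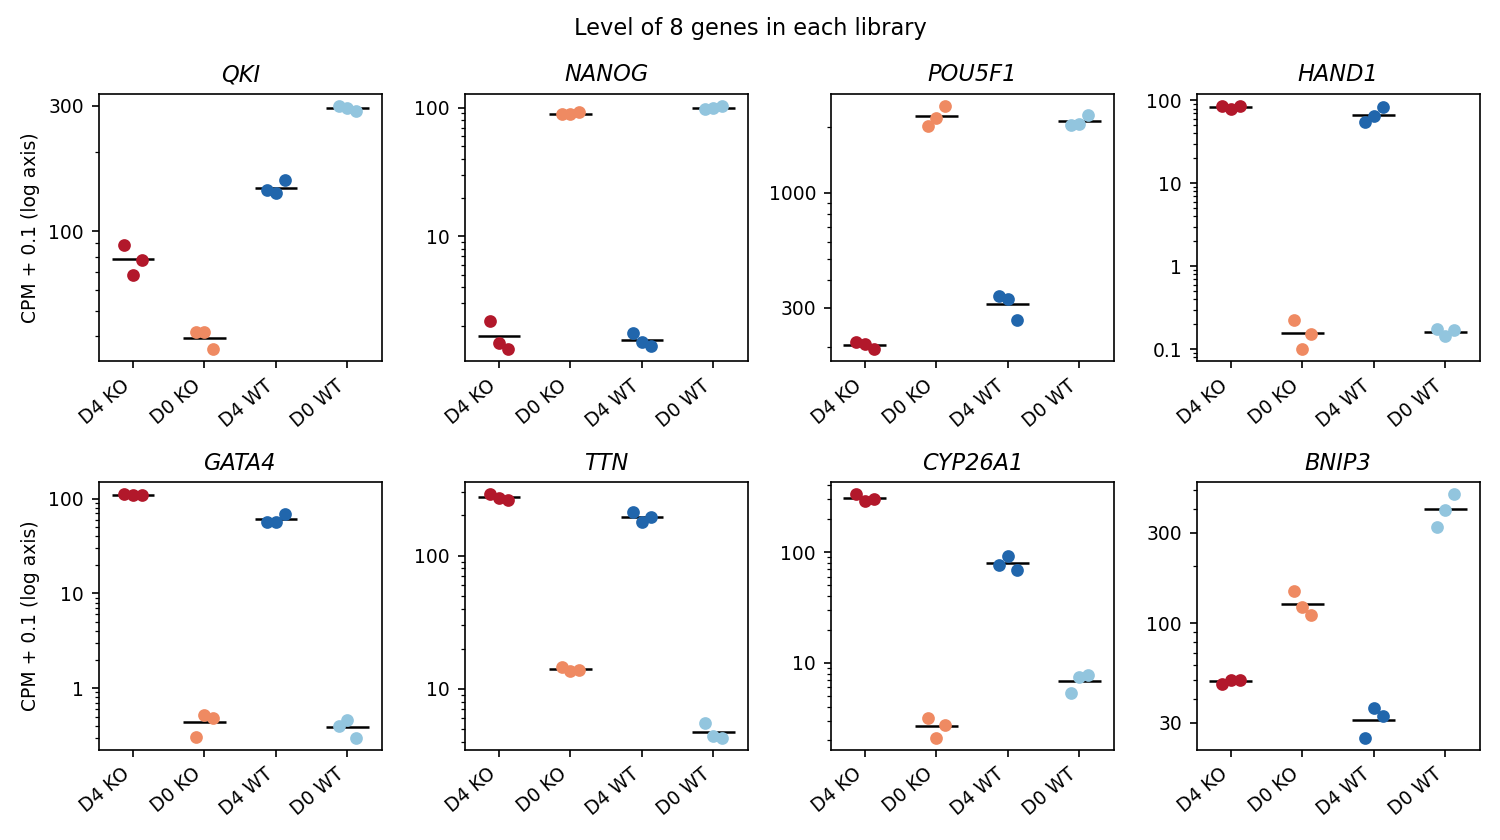
Level of 8 genes in each of the 12 D4 and D0 libraries, as CPM plus 0.1 on a log axis; each point is 1 library and each bar the mean of 3. NANOG and POU5F1 were lower at D4 than at D0 in KO and in WT, HAND1, GATA4, TTN and CYP26A1 were higher, and QKI moved in opposite directions in KO and WT.

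WNT and BMP pathway genes moved upward as groups. Of 14 genes for BMP ligands and targets, 14 were higher at D4 KO, 13 by 2-fold or more, with a median of 4.17. BMP2, a ligand of the heart-forming region, had 120, 134 and 131 CPM at D4 and 1.01, 0.81 and 1.06 CPM at D0. The rise was 7.06 (SE 0.16, edgeR adjusted p = 1.9e-19). BMPER, a secreted modulator of BMP signalling, rose by 9.32 (SE 0.21), and BMP4 and BMP5 rose by 4.28 and 7.27.

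The direct BMP targets ID1 and ID2, which hold back differentiation factors, rose by 3.99 and 3.78, and SMAD6, an inhibitor of the pathway, rose by 5.28. The ligand BMP7 was 70.4 ± 4.41 CPM at D4 KO and 17.4 ± 1.06 CPM at D0 KO (SD, n = 3 each). The KO course exceeded the WT course in BMPER by 1.68 (SE 0.33), in BMP2 by 1.48 (SE 0.25) and in BMP7 by 1.27 (SE 0.12), whereas in ID1 it was lower by 1.47 (SE 0.17). ID1 averaged 239 CPM at D4 KO and 242 CPM at D4 WT, but 15.03 CPM at D0 KO and 5.51 CPM at D0 WT. Its courses thus differed through the D0 level, with the D4 levels alike. Of the 14 genes, 8 had a higher and 3 a lower course in KO.

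Among 14 WNT feedback and target genes tested, 11 were higher and 2 lower at D4 KO. LGR5, a receptor for R-spondins, had 114, 96.7 and 92 CPM at D4 and 0.23, 0.11 and 0.16 CPM at D0, a rise of 9.25 (SE 0.31). LEF1, the transcription factor that carries the WNT signal to its targets, rose by 5.77 (SE 0.23), and NOTUM, which inactivates WNT ligands, by 4.46. SP5, with the 3 TCF/LEF places shown above, was 7.39, 8.75 and 7.87 CPM at D4 KO and 0.35, 0.31 and 0.37 CPM at D0 KO.

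The 2 lower genes were AXIN2, a negative regulator and target of the pathway, at -0.93 (SE 0.09), and CCND1, cyclin D1, at -2.28 (SE 0.12). In WT the fold change of AXIN2 was -0.03 (SE 0.09), which did not pass the test, and the 2 courses differed by -0.90 (SE 0.13, edgeR adjusted p = 1.2e-05). AXIN2 averaged 11.7 CPM at D4 KO and 22.3 CPM at D0 KO, against 13.0 CPM at D4 WT and 13.3 CPM at D0 WT. RNF43, which removes WNT receptors, rose by 1.36 in KO and fell by 0.51 in WT.

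WNT ligands and secreted antagonists were higher in 12 of 15 and lower in 2, all by 2-fold or more. The ligand WNT5A, which acts largely outside the beta-catenin route, averaged 79.2 CPM at D4 KO and 3.33 CPM at D0 KO, and WNT3A, a ligand of the primitive streak, averaged 4.66 CPM at D4 KO and 0.10 CPM at D0 KO. SFRP1, a secreted WNT antagonist, had 979, 1064 and 1032 CPM at D4 KO and 222, 218 and 226 CPM at D0 KO. In WT it averaged 616 CPM at D4 and 462 CPM at D0, so that the KO course was higher by 1.79 (SE 0.10, edgeR adjusted p = 9.4e-11). The antagonists SFRP5 and FRZB rose by 5.23 and 3.84, while SFRP2 fell by 3.49. Of the 15 genes, 7 had a higher and 2 a lower course in KO than in WT.

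FGF ligands and targets of ERK signalling, which sustains human pluripotent cells, had mixed directions, with 7 of 11 lower and 4 higher. FGF19 fell by 7.11 (SE 0.21) and FGF2, the ligand of stem cell media, by 2.65 (SE 0.14). The ERK-responsive genes ETV4, SPRY4 and DUSP6 fell, with log2 fold changes of -3.26, -2.09 and -1.04. Other ligands rose, FGF10 of the second heart field by 5.47 (SE 0.33), FGF17 by 5.23 (SE 0.24) and FGF8 of the streak by 3.87 (SE 0.27). DUSP6 was 77.6 CPM at D4 KO and 160 CPM at D0 KO, and 42.4 CPM at D4 WT and 305 CPM at D0 WT, which made the KO course higher by 1.81 (SE 0.16).

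**Figure D2:**
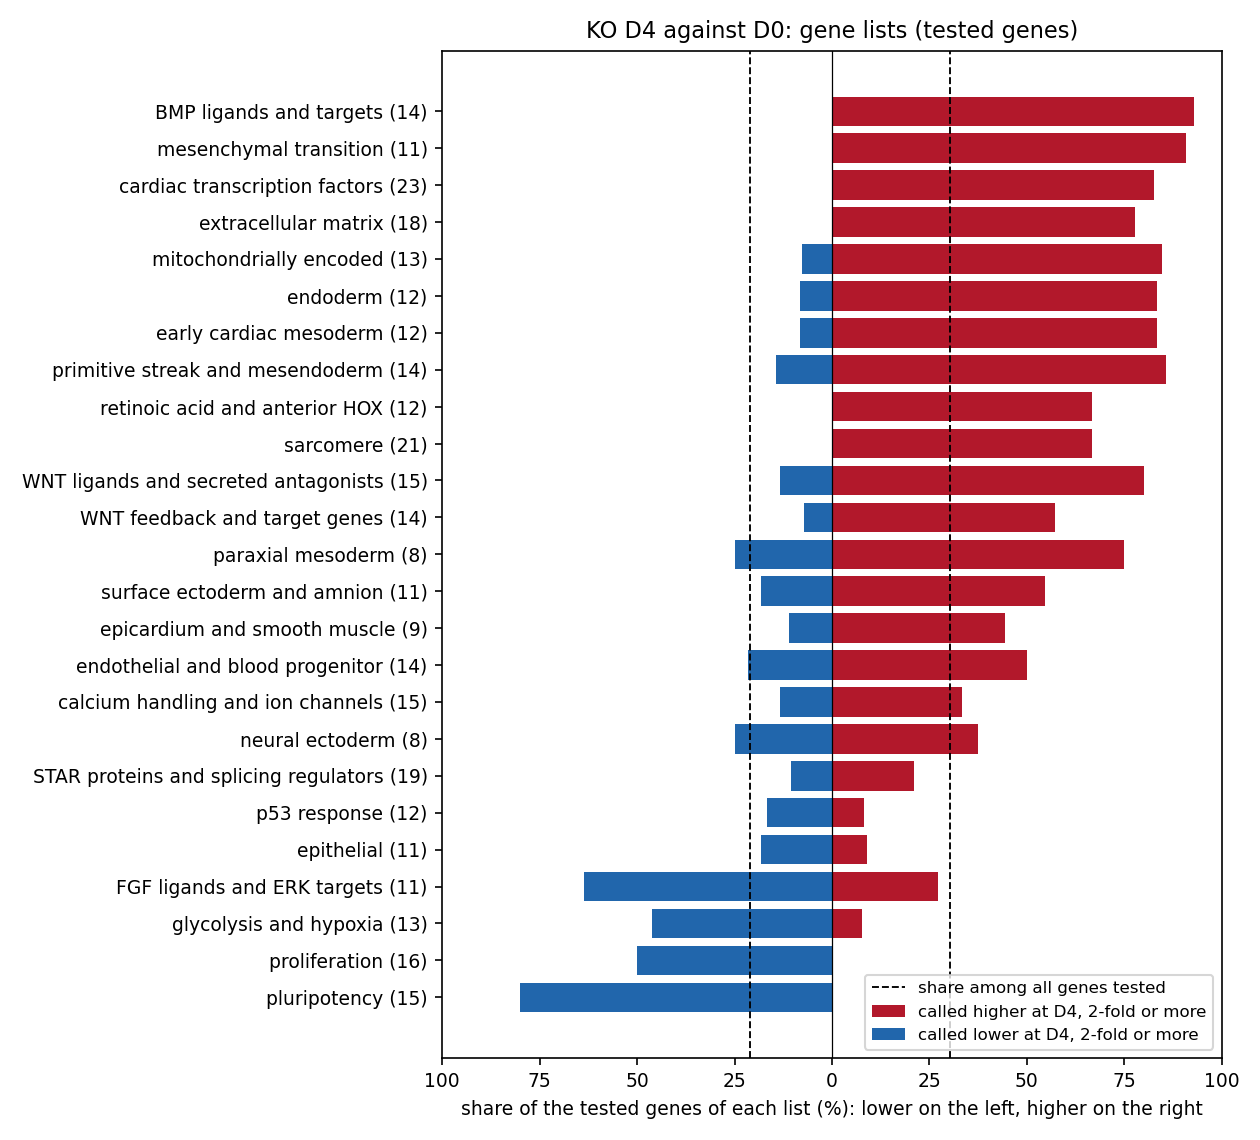
Share of the tested genes of each of 25 lists that were called at least 2-fold higher (right) or lower (left) in D4 KO against D0 KO, with the number of tested genes in brackets; dashed lines give the shares among all 21761 genes, 30.4% higher and 21.1% lower. The lists of BMP ligands and targets and of cardiac transcription factors lie at the higher end and the pluripotency list at the lower end.

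Primitive streak genes were mostly higher at D4 than at D0. Of 14, 12 were higher and 2 lower, all by 2-fold or more. EOMES, a T-box factor of the streak, had 64.5, 62.3 and 65.7 CPM at D4 KO and 0.46, 0.52 and 0.62 CPM at D0 KO. LHX1, a factor of the organiser, rose by 7.24 (SE 0.16), and CER1, a secreted antagonist of NODAL, BMP and WNT, by 3.86 (SE 0.23). The lower pair were NODAL and its inhibitor LEFTY1.

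Other streak genes were higher at D4, with at most 2.72 CPM in any D4 KO library. T, or brachyury, had 0.69, 0.73 and 1.03 CPM at D4 KO and 0.06, 0.07 and 0.12 CPM at D0 KO. GSC, a factor of the organiser, had 1.6, 1.23 and 1.29 CPM at D4 KO and 0.02, 0.04 and 0.11 CPM at D0 KO, a rise of 4.56 that was 5.45 without D0 KO replicate 3. MIXL1, a homeobox factor of the streak, had 1.94 to 2.72 CPM at D4 KO and 0.95 to 1.30 CPM at D0 KO. EVX1, a homeobox factor of the posterior streak, had 1.45 to 1.96 CPM at D4 KO and no count at D0 KO, which puts it at least 89.1-fold higher.

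NODAL had 3.63, 1.17 and 1.2 CPM at D4 KO and 8.61, 9.35 and 10.3 CPM at D0 KO. Its fall was 2.20 (SE 0.28), and 2.99 without D4 KO replicate 1, the highest of its group. LEFTY1 fell by 4.01 (SE 0.30) and LEFTY2, a close copy with which reads may be split, rose by 3.06 (SE 0.21). The KO course was lower than the WT course in LEFTY2 by 2.0 (SE 0.36, edgeR adjusted p = 0.00017). In LEFTY1 it was lower by 2.19 (edgeR adjusted p = 0.018), a call that was lost without D4 WT replicate 2 (-1.79, edgeR adjusted p = 0.13). Both genes still had higher means in KO than in WT at each day. LEFTY2 averaged 13.54 and 1.61 CPM at D4 and D0 KO, against 10.99 and 0.33 CPM at D4 and D0 WT. Its KO and WT libraries overlapped at D4. LEFTY1 averaged 0.23 and 3.78 CPM at D4 and D0 KO, against 0.084 and 0.3015 CPM at D4 and D0 WT.

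Among 12 early cardiac mesoderm genes, 11 were higher at D4 KO and 1 lower. HAND1, a factor of the first heart field and of extraembryonic mesoderm, had 86.5, 78.6 and 85.5 CPM at D4 and 0.12, 0 and 0.05 CPM at D0. It rose by 10.48 (SE 0.33), a value that lay at 11.48 without D0 KO replicate 1 and at 9.89 without replicate 2, since D0 held 9 reads in all. APLNR, the apelin receptor of migrating mesoderm, averaged 351 CPM at D4 and 0.90 CPM at D0. PDGFRA, a receptor of cardiac mesoderm, rose by 6.77 (SE 0.17), and HAS2, which makes the hyaluronan of cardiac jelly, by 6.39 (SE 0.15).

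MESP1, the early driver of cardiac mesoderm, was low at both days, at 3.99, 4.32 and 5.93 CPM at D4 KO and 0.08, 0.07 and 0.05 CPM at D0 KO. KDR, a receptor of cardiovascular progenitors, was already abundant at D0 and rose by 0.48 (SE 0.08). APLN, the ligand of APLNR, was the lower gene. It fell by 3.15 (SE 0.20) in KO and by 5.93 in WT, a difference of 2.78 (SE 0.31, edgeR adjusted p = 7.1e-07).

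Of 23 cardiac transcription factors, 20 were higher at D4 KO, 19 of them by 2-fold or more, and 3 were not called, with a median of 5.92. GATA4 had 111, 109 and 108 CPM at D4 and 0.21, 0.42 and 0.39 CPM at D0. The days were separated by a rise of 8.30 (SE 0.17, edgeR adjusted p = 7.4e-20). GATA6 rose by 9.53 (SE 0.26), GATA5 by 5.89 (SE 0.18), TBX3 by 7.95 (SE 0.11) and ISL1, a marker of the second heart field, by 7.02 (SE 0.19).

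Members of the list that had at most 5.59 CPM in any D4 KO library included NKX2-5, TBX5 and MEF2C. NKX2-5 had 2.53, 2.20 and 2.51 CPM at D4 and 0, 0.04 and 0.07 CPM at D0, a rise of 5.92 that was 6.80 without D0 KO replicate 3. TBX5, a factor of the first heart field, had 0.84, 0.65 and 0.55 CPM at D4, and MEF2C had 5.59, 2.94 and 2.75 CPM. For each of these genes the D4 libraries were above the D0 libraries. MYOCD, a coactivator of muscle genes, averaged 28.0 CPM at D4 KO and 4.26 CPM at D0 KO, against 33.1 CPM at D4 WT and 1.26 CPM at D0 WT, so its course was lower in KO by 1.98 (SE 0.27, edgeR adjusted p = 7.5e-06). In the list as a whole, 3 genes had a higher course in KO, 4 a lower one and 16 were not called. Among all genes tested, 20% had a higher and 19.1% a lower course in KO.

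Sarcomere genes were mostly higher, with 16 of 21 higher, 1 lower and 4 not called. TTN, the giant elastic protein of the sarcomere, had 289, 271 and 259 CPM at D4 KO and 14.5, 13.6 and 13.8 CPM at D0 KO. It rose by 4.29 (SE 0.12) in KO and by 5.40 in WT, where it averaged 195 CPM at D4 and 4.63 CPM at D0. ACTC1, cardiac actin, had 156, 107 and 107 CPM at D4 KO and 9.64, 9.56 and 11.7 CPM at D0 KO. Its KO course was lower than the WT course by 1.50 (SE 0.24), and that of TTN by 1.11 (SE 0.16), while both genes stood above WT at each day.

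The atrial light chains MYL4 and MYL7 had 41.6 to 76.3 and 59.2 to 84.1 CPM at D4 KO. MYL4 rose by 9.80, with 10.56 and 9.21 without D0 KO replicates 1 and 2, and MYL7 rose by 5.84 (SE 0.19). MYH6, the alpha myosin heavy chain, rose by 6.71 (SE 0.38). TNNT2, cardiac troponin T and the usual stain for cardiomyocytes, was 15.9, 8.55 and 6.54 CPM at D4 KO and 4.24, 5.09 and 3.33 CPM at D0 KO.

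TNNI3, the troponin I of the mature heart, was the lower gene, at -0.72 (SE 0.18). TPM1, a tropomyosin, rose by 0.44 (SE 0.08) in KO and by 1.80 in WT, and NEBL, the cardiac nebulette, rose by 1.83 in KO. Of the 21 genes, 5 had a lower course in KO, 4 of them by 2-fold or more, and 1 a higher one.

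Genes of calcium handling and ion channels had no common direction, with 6 higher, 6 lower and 3 not called of 15. The junctional protein JPH2 rose by 3.40 (SE 0.17) and the calcium channel subunit CACNA1C by 2.20 (SE 0.15). TRDN, which anchors calsequestrin to the ryanodine receptor, fell by 3.42 (SE 0.15), and the gap junction gene GJA1 fell by 0.98, to 1249 CPM at D4 KO against 2462 CPM at D0 KO. KCNQ1, a potassium channel, rose by 1.13 in KO and fell by 0.43 in WT.

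Markers of other lineages rose beside the cardiac genes. Of 12 endoderm genes, 11 were higher and 1 lower, with a median of 8.16 and a summed level of 383 to 420 CPM at D4 KO and 28.6 to 31.7 CPM at D0 KO. FOXA2, a factor of endoderm and floor plate, had 58.3, 64.3 and 66.3 CPM at D4 and 0.25, 0.26 and 0.39 CPM at D0, against means of 28.5 CPM at D4 WT and 0.04 CPM at D0 WT. SOX17, the factor of definitive endoderm, had 56.5, 63.1 and 65.7 CPM at D4 and 0.08, 0.07 and 0.05 CPM at D0, against a mean of 30.5 CPM at D4 WT and no count at D0 WT. Both genes were thus higher in KO than in WT at each day. The apolipoprotein genes APOA1 and APOB rose by 8.62 (SE 0.24) and 4.47 (SE 0.21). AFP, made by yolk sac and fetal liver, was the lower gene, at 0.07 to 0.15 CPM at D4 and 5.26 to 5.66 CPM at D0.

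The summed endoderm level was 170 to 182 CPM at D4 WT and 19.5 to 22.0 CPM at D0 WT. Of the 12 genes, 5 had a higher and 3 a lower course in KO than in WT, with a median difference of 1.52. Over all genes tested, 20% were called higher and 19.1% lower. The courses of APOA1 differed by 2.27 (edgeR adjusted p = 0.0031), which was 1.74 (edgeR adjusted p = 0.06) without D0 WT replicate 3. The part of endoderm RNA in the cardiac and signalling changes was not tested.

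Endothelial and blood progenitor genes were higher in 8 of 14 and lower in 4 in the KO course. CD34, a surface marker of both, had 45.0, 52.5 and 52.4 CPM at D4 KO and 0.68, 0.70 and 0.56 CPM at D0 KO. CDH5, the cadherin of endothelium, rose by 2.25 (SE 0.16) in KO and fell by 0.50 in WT, and PLVAP, a protein of endothelial pores, rose by 6.85 (SE 0.31) in KO. TAL1, which starts the blood programme, averaged 5.88 CPM at D4 KO and 0.15 CPM at D0 KO, against 0.62 CPM at D4 WT and 0.17 CPM at D0 WT.

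The KO course exceeded the WT course in CD34 by 2.55 (SE 0.31), in CDH5 by 2.75 (SE 0.25), in TAL1 by 3.53 (SE 0.63) and in LMO2, the partner of TAL1, by 1.99 (SE 0.29). FLI1 did not pass the test in KO (-0.28, SE 0.20) and fell by 3.96 in WT, a difference of 3.68 (SE 0.37). ETV2, the early switch to endothelium, averaged 3.12 CPM at D4 KO and 0.39 CPM at D0 KO. Of the 14 genes, 8 had a higher course in KO, all by 2-fold or more, and TEK a lower one; over all genes tested, 7.57% were higher and 4.18% lower at that size.

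Other lists were mixed. Of 11 surface ectoderm and amnion genes, 6 were higher, 2 lower and 3 not called. GATA3, shared by amnion, trophoblast and surface ectoderm, averaged 141 CPM at D4 KO and 0.36 CPM at D0 KO, against 71.8 CPM at D4 WT and 0.07 CPM at D0 WT. TFAP2A, an AP-2 factor, had 3.22, 3.33 and 4.12 CPM at D4 KO, against a mean of 17.7 CPM at D4 WT. TFAP2C fell by 1.78 (SE 0.18) and the GABA receptor gene GABRP by 3.48 (SE 0.47).

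Among 8 neural ectoderm genes tested, 3 were higher and 3 lower. DCX, a microtubule protein of young neurons, fell by 3.81 (SE 0.13), while OTX2, which also marks anterior endoderm, rose by 2.90 (SE 0.06). SOX3 fell by 2.75 (SE 0.21) in KO and by 0.46 in WT. In paraxial mesoderm, the source of the somites, 6 of 8 genes were higher and 2 lower, with TBX6 at 2.44 (SE 0.15) and DLL1, a NOTCH ligand, at 3.33 (SE 0.14). Epicardium and smooth muscle genes were higher in 6 of 9. TCF21, a factor of the epicardium, rose by 3.30 (SE 0.28), and TAGLN, an actin-binding protein of smooth muscle, fell by 1.17 (SE 0.11) in KO and rose by 0.33 in WT.

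Genes of the mesenchymal transition, by which streak cells leave the epithelium, were higher in 10 of 11 and lower in none, with 1 not called. ZEB2, a repressor of epithelial genes, had 23.3, 20.4 and 18.8 CPM at D4 KO and 0.04, 0.15 and 0.07 CPM at D0 KO. It rose by 7.86, and by 8.46 without D0 KO replicate 2. The intermediate filament gene VIM rose by 3.40 (SE 0.15) and FN1, fibronectin, by 4.24 (SE 0.14), to a mean of 3996 CPM at D4. The cadherin genes CDH2 and CDH11 rose by 2.96 and 4.25, and CDH6 rose by 1.98 in KO and by 3.85 in WT.

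The epithelial list did not fall as a whole, with 4 of 11 genes lower, 4 higher and 3 not called. CDH1, E-cadherin, had 301, 363 and 322 CPM at D4 KO and 393, 341 and 362 CPM at D0 KO, groups that overlapped. KRT8 rose by 1.45 (SE 0.09) and EPCAM by 0.38 (SE 0.10), while ESRP1, a splicing factor of epithelia, fell by 1.65 (SE 0.10). RAB25, a vesicle GTPase of epithelia, rose by 0.74 in KO and fell by 0.76 in WT.

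Extracellular matrix genes were higher in 16 of 18 and lower in none, with a summed level of 9557 to 10620 CPM at D4 KO and 2420 to 2745 CPM at D0 KO. COL5A1, a fibrillar collagen, averaged 1176 CPM at D4 and 14.6 CPM at D0, a rise of 6.34 (SE 0.14). HAPLN1, which links hyaluronan to proteoglycans in the cardiac jelly, rose by 6.07 (SE 0.18), and the basement membrane collagen COL4A1 by 2.73 (SE 0.09). COL6A1 rose by 3.06 (SE 0.10). COL1A2 rose by 2.25 in KO and by 3.75 in WT, a difference of -1.49 (SE 0.14).

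Genes of retinoic acid metabolism and the anterior HOX genes were higher in 8 of 12 and lower in none. CYP26A1, which breaks down retinoic acid and carries the direct repeat shown above, had 332, 290 and 300 CPM at D4 KO and 3.08, 2.01 and 2.63 CPM at D0 KO. In WT it averaged 78.9 CPM at D4 and 6.75 CPM at D0. It was the 1 gene of the list with a higher course in KO, by 3.36 (SE 0.32, edgeR adjusted p = 7.7e-08).

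RARB, a retinoic acid receptor, had 17.8, 17.5 and 18 CPM at D4 KO and 0.14, 0.06 and 0.05 CPM at D0 KO. HOXB3 had 18.8, 14.9 and 11.8 CPM at D4 and no count at D0, which puts it at least 821-fold higher. HOXB2 had 1746 counts at D4 and 3 at D0, a ratio of 603 (206 to 2930), and its fitted log2 fold change of 9.06 was 9.88 without D0 KO replicate 3.

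Proliferation genes were lower in 16 of 16, 8 of them by 2-fold or more, with a summed level of 2299 to 2390 CPM at D4 KO and 5111 to 5219 CPM at D0 KO. BUB1, a kinase of the spindle checkpoint, fell by 2.26 (SE 0.07), TOP2A, which untangles chromosomes, by 2.15 (SE 0.10) and cyclin B1 (CCNB1) by 1.56 (SE 0.05). MKI67 had 223, 218 and 213 CPM at D4 and 375, 297 and 301 CPM at D0. In WT 12 of the 16 genes were lower, 3 higher and 1 not called. MCM5, a gene of the replication helicase, fell by 0.73 (SE 0.07) in KO and rose by 0.23 in WT. It averaged 161 CPM at D4 KO and 268 CPM at D0 KO, against 195 CPM at D4 WT and 167 CPM at D0 WT. MCM6, of the same helicase, fell by 0.78 in KO, while in WT its log2 fold change of 0.13 did not pass the test. Its means were 199 and 342 CPM at D4 and D0 KO, and 265 and 242 CPM at D4 and D0 WT. Of the 16 genes, 11 had a lower course in KO and 1 a higher one. The summed level at D4 WT was 2902 to 2992 CPM and at D0 WT 5048 to 5134 CPM.

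Glycolysis enzymes and targets of hypoxia had a higher course in KO than in WT in 11 of 13, and 2 were not called. Within KO, 7 were lower at D4, 1 was higher and 5 were not called. BNIP3, a mitophagy receptor and hypoxia target with the core shown above, had 47.7, 50 and 50.1 CPM at D4 KO and 148, 122 and 110 CPM at D0 KO. It averaged 31.0 CPM at D4 WT and 397 CPM at D0 WT, and the KO course was higher by 2.32 (SE 0.19, edgeR adjusted p = 1.5e-08).

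The glycolytic enzymes PGK1 and LDHA fell in KO by 1.32 and 1.28 and in WT by 2.65 and 2.40, with differences of 1.33 (SE 0.13) and 1.12 (SE 0.18). SLC2A3, a glucose transporter, fell by 0.26 in KO, a call lost when libraries were scaled by total counts (-0.05), and by 2.25 in WT. PFKFB4, which tunes glycolytic flux, had 14.9 to 18.5 CPM at D4 KO and 14.8 to 20.3 CPM at D0 KO, groups that overlapped, and 17.6 CPM at D4 WT and 57.5 CPM at D0 WT. VEGFA, the vascular growth factor, was the higher gene, at 301, 309 and 303 CPM at D4 KO and 40.7, 39.0 and 31.8 CPM at D0 KO. The summed level of the list was 3710 to 3929 CPM at D4 KO and 6725 to 7040 CPM at D0 KO, against 2867 to 3198 CPM at D4 WT and 10790 to 13130 CPM at D0 WT. The WT and KO sums therefore lay further apart at D0 than at D4.

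**Figure D3:**
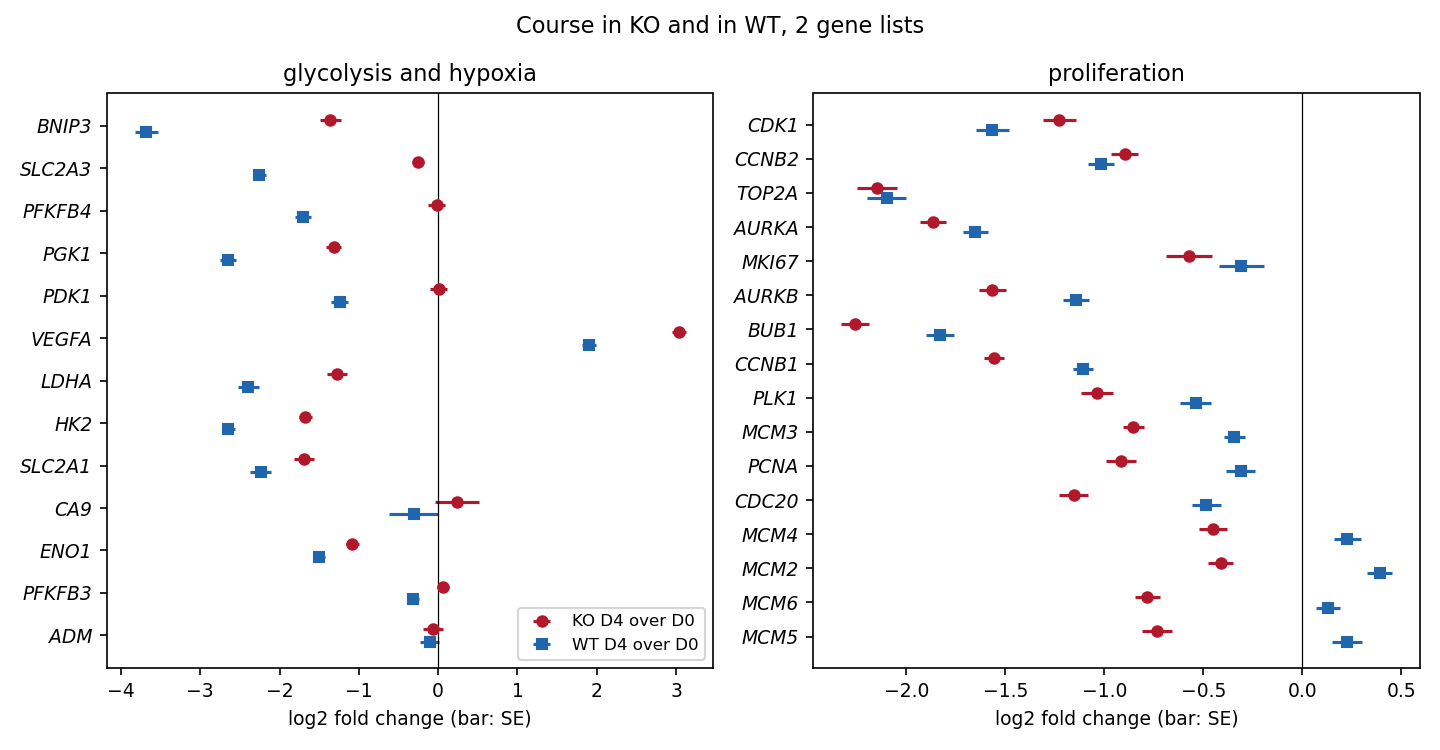
Log2 fold change of D4 over D0 in KO (circles) and WT (squares), with bars of 1 SE, for 13 genes of glycolysis and hypoxia and 16 of proliferation. For BNIP3, PGK1, LDHA and SLC2A3 the KO value lies above the WT value, and for MCM5 and MCM6 it lies below.

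Mitochondrially encoded genes were higher in 12 of 13 at D4 KO. MT-CO1, a subunit of cytochrome oxidase, had 23470, 29770 and 25080 CPM at D4 and 5186, 5437 and 3774 CPM at D0, and MT-ND1 and MT-ND4, subunits of complex I, rose by 2.82 and 2.78. MT-ND6, the one subunit encoded on the other strand, fell by 1.14 (SE 0.25), with the strand setting of the counting unknown. The KO course was lower than the WT course in 7 of the 13, among them MT-CYB by 0.97 (SE 0.19). In WT these reads took 15.5% to 18.9% of counts at D4 and 3.13% to 3.96% at D0.

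Genes of the p53 response were lower in 6 of 12, higher in 2 and not called in 4. FAS, a death receptor, fell by 2.13 (SE 0.19) and MDM2, the inhibitor of p53, by 0.77 (SE 0.07). BTG2, an antiproliferative gene, rose by 2.48 (SE 0.08) in KO and by 0.54 in WT, a difference of 1.93 (SE 0.11, edgeR adjusted p = 2.6e-10).

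STAR proteins and splicing regulators were higher in 6 of 19, lower in 8 and not called in 5. RBM24, a splicing factor of heart and skeletal muscle, had 41.9, 39.2 and 39.4 CPM at D4 KO and 0.17, 0.26 and 0.21 CPM at D0 KO. It rose by 7.54 (SE 0.26) in KO and by 5.40 in WT, a difference of 2.14 (SE 0.47, edgeR adjusted p = 0.0011). RBM20, the regulator of titin splicing, rose by 5.20 (SE 0.16) and CELF2 by 1.19 (SE 0.08), while MBNL1, another splicing factor of muscle, fell by 1.96 (SE 0.11).

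Over all genes, 8518 had a KO course that differed from the WT course (39.1%), 4352 with a higher and 4166 with a lower course in KO. Under scaling by total counts the share with a higher course was 62.9% of those called, instead of 51.1%. At 2-fold or more, 1647 were higher and 910 lower. The log2 fold changes of the 2 courses had a Pearson r of 0.892 over the 21761 genes, which are not independent replicates. Of 15631 genes called in both courses, 14958 changed in the same direction and 673 in opposite directions. Means of KO and WT were also compared within each day, with 0.1 CPM added to each mean. In 813 of the 2557 genes with a difference of at least 2-fold the D0 means so raised were at least 2-fold apart, and in 494 the D4 means were. Genes close to silent at D0, such as SOX17, can be left out of the 813.

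The 6 largest positive differences among genes of at least 10 CPM began with USP6, a deubiquitinase with close relatives, at 19.7, 18.1 and 21.2 CPM at D4 KO and 0.25, 0.48 and 0.25 CPM at D0 KO. In WT it averaged 17.3 CPM at D4 and 3.94 CPM at D0, so that the days of WT lay closer and the difference was 3.76 (SE 0.34, edgeR adjusted p = 4e-08). OCIAD2, an OCIA domain protein, had 10.3, 10.2 and 9.57 CPM at D4 KO and 2.19, 2.45 and 2.70 CPM at D0 KO, against 17.3 CPM at D4 WT and 47.5 CPM at D0 WT, and it moved in opposite directions in KO and WT.

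ERBB4, the neuregulin receptor of the heart, rose by 7.78 in KO and by 4.46 in WT. Without D0 KO replicate 1 its KO rise was 8.64 and its difference 4.18, instead of 3.32. NPTX1, a neuronal pentraxin, fell by 4.97 in KO and by 7.90 in WT. For GPR55 the difference of 3.45 (edgeR adjusted p = 0.034) rested on a few D0 reads. Without D0 KO replicate 2 no D0 KO read is left, and the fitted difference of 5.45 and KO rise of 14.05, instead of 12.06, are no bounds. The call was lost at 1.94 (edgeR adjusted p = 0.47) without D0 WT replicate 1, at 3.05 without D0 KO replicate 1 and at 2.96 without D0 KO replicate 3.

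Among the 6 largest negative differences, SOX17 stood first, and D0 WT held no count of it. In WT it was at least 1580-fold higher at D4, and the fitted difference of -4.05 (edgeR adjusted p = 0.019) is no bound; the call was lost without D0 WT replicate 1 or 3 (edgeR adjusted p = 0.052 in each). MMP24, a membrane metalloprotease, had 28.5, 26.1 and 26.3 CPM at D4 KO and 20.8, 19.9 and 23.2 CPM at D0 KO, against 45.2 CPM at D4 WT and 5.75 CPM at D0 WT. Its difference was -2.64 (SE 0.23, edgeR adjusted p = 3.5e-08).

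HPGD, which inactivates prostaglandins, rose by 3.61 in KO and by 6.24 in WT, and AMER3, a regulator of the WNT pathway, rose by 5.14 in KO and by 7.66 in WT. The rhomboid family gene RHBDL3 and TEK, the angiopoietin receptor, fell in KO by 0.87 and 1.11 and rose in WT by 1.66 and 1.40. In RHBDL3 and MMP24 every KO library was above every WT library at D0 and below every one at D4. For TEK the same held for the means only. At D4 its KO libraries (11.4, 12.1 and 11.9 CPM) overlapped those of WT (19.0, 16.4 and 10.6 CPM).

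**Figure D4:**
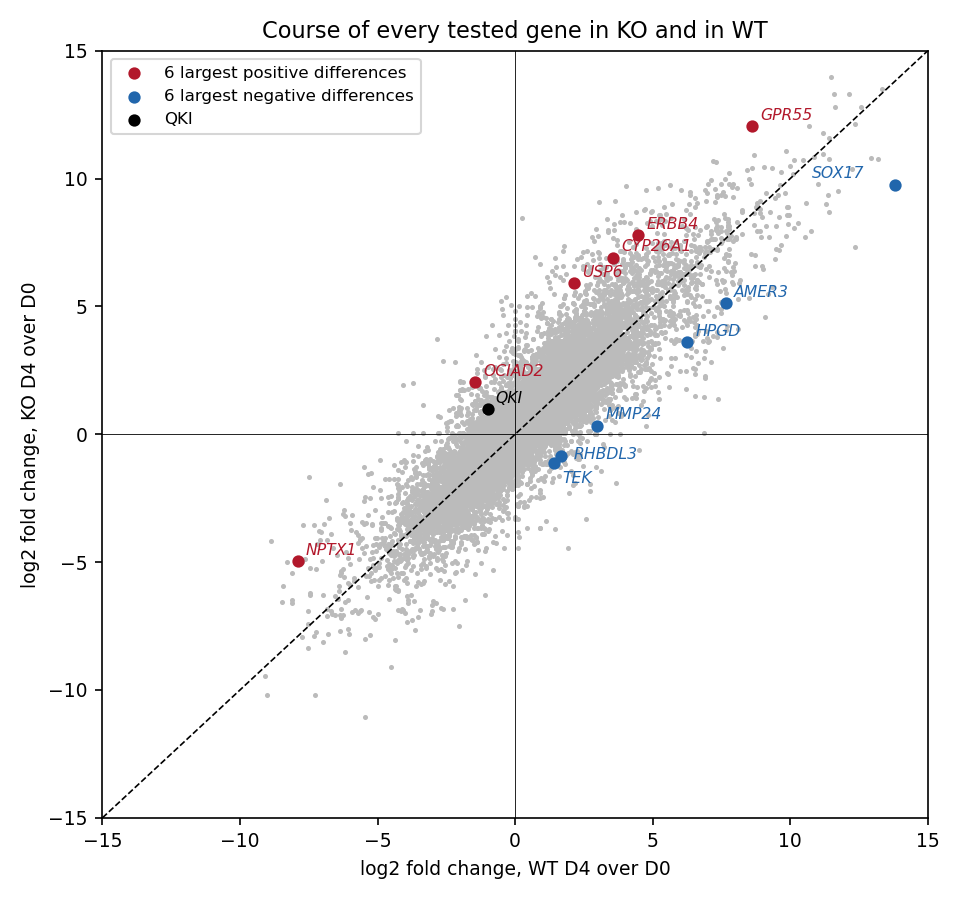
Log2 fold change of D4 over D0 in KO (vertical) and WT (horizontal) for the 21761 tested genes, in grey, with the 6 largest positive called differences among genes with a mean of at least 10 CPM in red, the 6 largest negative in blue and QKI in black; the dashed line marks equal courses. OCIAD2 and QKI lie above 0 in KO and below 0 in WT, and RHBDL3 and TEK the reverse.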

How the data were processed

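Poly(A) RNA was sequenced with stranded mRNA kits, per the labels' protocols. The authors deposited a table of raw read counts per gene for 18 whole-cell libraries, with no normalisation; the submitters' processing notes name hg19, STAR, featureCounts, cutadapt, UMI-tools and DESeq, without versions, annotation or strand setting in the sources used here. The other deposited tables were not used here.

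Counts of all 18 libraries entered 1 quasi-likelihood fit (edgeR 4.0.16 under R 4.3.3), filtered with filterByExpr and scaled by TMM, with 1 mean per group. The contrasts were D4 KO against D0 KO, D4 WT against D0 WT, and their difference; all tests were two-sided, with Benjamini-Hochberg adjustment over 21761 genes, and a gene was called at an adjusted p under 0.05. In simulated counts with few changed genes, all in D4 KO, 88.1% of 1.5-fold changes were recovered in the KO course. For the difference of courses the share was 68.7%. Most genes changed in the real data, so the simulation does not show how scaling or calling behaved there. CPM use TMM-scaled totals. A group without counts is set to 3 counts in all for folds, and one of 1 to 3 counts gives a ratio with its 95% exact interval. Both cover counting error only.

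Named genes are QKI, the 10 largest rises and falls (mean of at least 10 CPM, groups not overlapping), the 6 largest differences of courses each way, and from 25 lists (342 genes, 341 of 352 entries tested, with PECAM1 not listed in the table) the members with the largest changes at a mean of at least 1 CPM or a central role. The members and lists were chosen with earlier results of these data known. Alternatives were DESeq2 1.42.0 as test and as scaling, total counts, other filters, fewer libraries, a replicate block, omission of mitochondrial genes and omission of each library. A result on a withheld item is not reported here.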

Additional observations from a re-analysis of the deposited data

Results flagged for a closer look

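The values here are the KO course minus the WT course on the log2 scale, for named genes whose courses differed by at least 2-fold at an edgeR adjusted p under 0.05. Among all 21761 genes 11.8% did so. CHIR dose differed with genotype and cannot be told apart from it. Each gene stands out because the change of level between D0 and D4 differed between the genotypes.

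Among pluripotency genes and RNAs of stem cells, the KO course was lower in PRDM14 (-2.12), DNMT3B (-1.74), L1TD1 (-1.33), SOX2 (-1.29) and ESRG (-1.20), and higher in ZFP42 (2.11). QKI itself differed by 1.99.

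Signalling genes with a higher KO course were WNT3A (2.35), FRZB (1.98), RNF43 (1.87), DUSP6 (1.81), SFRP1 (1.79), BMPER (1.68), SP5 (1.49), BMP2 (1.48), BMP7 (1.27) and WNT5A (1.16). Those with a lower one were LEFTY1 (-2.19), LEFTY2 (-2.0), FGF2 (-1.75), ID1 (-1.47) and CCND1 (-1.42). Of these, LEFTY1 and LEFTY2 had higher means in KO than in WT at each day. ID1 averaged 239 CPM at D4 KO and 242 CPM at D4 WT, and its D0 mean was higher in KO.

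In the heart and mesoderm lists the KO course was higher in APLN (2.78), MEF2C (1.66), KCNQ1 (1.57), TBX6 (1.25), GATA5 (1.18), CACNA1C (1.03) and APLNR (1.02). Within the same lists and smooth muscle it was lower in MYOCD (-1.98), ACTC1 (-1.50), TAGLN (-1.50), TPM1 (-1.36), TTN (-1.11) and TNNI3 (-1.08).

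Endothelial and blood genes had a higher KO course in FLI1 (3.68), TAL1 (3.53), CDH5 (2.75), CD34 (2.55), LMO2 (1.99) and ETV2 (1.57), and a lower one in TEK (-2.51). Among the named endoderm genes the KO course was higher in APOA1 (2.27) and lower in SOX17 (-4.05), AFP (-3.99) and FOXA2 (-1.55). In the whole endoderm list, 4 of 12 genes were higher and 3 lower at this size. SOX17 and FOXA2 averaged 61.8 and 63.0 CPM at D4 KO, above their 30.5 and 28.5 CPM at D4 WT, and their D0 libraries held 11 and 48 counts in KO and 0 and 7 in WT. Ectodermal and amnion genes were lower in SOX3 (-2.30), TFAP2C (-1.47) and GATA3 (-1.36). GATA3 averaged 141 CPM at D4 KO and 71.8 CPM at D4 WT, with 58 counts at D0 KO and 11 at D0 WT.

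For metabolism and stress the KO course was higher in BNIP3 (2.32), SLC2A3 (2.0), BTG2 (1.93), PFKFB4 (1.68), PGK1 (1.33), VEGFA (1.13) and LDHA (1.12), and lower in FAS (-1.19). The splicing factor RBM24 (2.14), the epithelial RAB25 (1.50) and CYP26A1 (3.36) were higher, and the matrix and adhesion genes CDH6 (-1.87) and COL1A2 (-1.49) were lower.

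Of the other genes named for their size of change, USP6 (3.76), OCIAD2 (3.49), GPR55 (3.45), ERBB4 (3.32), NPTX1 (2.93) and GRIA4 (1.18) were higher in the KO course. HIST1H2BJ (-2.73), MMP24 (-2.64), HPGD (-2.63), RHBDL3 (-2.53), AMER3 (-2.52), HIST1H2AC (-2.42), MT1G (-1.98) and SLC38A4 (-1.56) were lower.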

How the results depend on the processing

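Requiring at least 10 CPM in 3 libraries left fewer genes to test, and the calls then numbered 10543 in the KO course, 4944 of them at 2-fold or more, as well as 10461 in the WT course and 910 differences of at least 2-fold. Every other alternative kept each of these counts within 1.5 times, DESeq2 included. Leaving out 1 library at a time gave 17622 to 17831 calls in the KO course, 11182 to 11400 at 2-fold or more, 17234 to 17462 in WT, and 7515 to 8151 differences, 2238 to 2544 of them at 2-fold or more, while the QKI change in KO lay between 0.89 and 1.08. Replicate numbers are not stated to pair these samples. The correlations of same-numbered deviations were 0.02, -0.03 and 0.02 in KO and 0.08, -0.02 and 0.06 in WT. Those of differently numbered libraries ran from -0.04 to 0.02 in KO and from -0.10 to 0.04 in WT. Whether a pairing exists is not settled by these values. A replicate block over the compared libraries gave 17069 calls in the KO course, 10075 at 2-fold or more, 16434 in WT, 9149 differences with 2488 at 2-fold or more, and 0.98 for QKI. Of 241 values of named genes, 234 kept their direction and side of the threshold under every alternative run, and the exceptions were LEFTY1, SOX17, APOA1, GPR55, SLC2A3, MMP24 and CDH1. CDH1, not called in KO, turned from -0.152 to 0.059 under total counts, and was called lower with no filter (-0.165) and with only the compared libraries (-0.16); the cause was not tested. MMP24, not called in KO at 0.34, was called in 6 alternatives. Genes with a few reads at D0 have the least certain fold changes.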

Other observations

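A pair of gene families outside the lists were looked at after their values had been seen, since members were among the largest falls. The share of all tested genes called lower at D4 KO was 38.5%. Metallothioneins, small proteins that bind zinc and copper, were lower at D4 KO in 9 of 9 tested genes, with a summed level of 2.07 to 2.49 CPM at D4 KO and 110 to 124 CPM at D0 KO. The sum was 2.40 to 3.96 CPM at D4 WT and 72.1 to 91.8 CPM at D0 WT, and the median log2 fold change was -5.36 in KO and -4.98 in WT.

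Among all genes tested, 38.5% were called lower at D4 KO and 44.1% higher. Of 51 histone genes of the HIST clusters tested, 43 were lower at D4 KO, 1 was higher and 7 were not called. Their summed level was 18 to 21.9 CPM at D4 KO and 279 to 355 CPM at D0 KO, against 21.8 to 27.3 CPM at D4 WT and 91.6 to 105 CPM at D0 WT. The median log2 fold change was -3.06 in KO and -1.42 in WT. Most transcripts of these clusters lack a poly(A) tail, so poly(A) libraries hold a part of them, and members of both families are near-identical to one another.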
